A study of Mus musculus with 4 samples.

Results

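The genes described here mark the basal layer of the mammary epithelium, leaving out its keratins. They are 34 listed genes: 12 encode proteins of the smooth muscle contractile apparatus, 3 encode transcription factors, 3 encode receptors or a surface enzyme, 11 encode adhesion and basement membrane proteins, 4 encode secreted factors and 1 encodes the intermediate filament vimentin. Each gene was read from the probe set with its symbol alone and the highest mean log2 signal over the 4 arrays. Of the 34 genes, 33 had such a probe set among 18193 named genes of the array, and Dsg3 was not analysed here. A further limit on mean signal left 31 members among 11360 tested genes.

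RNA came from mammary tissue of 2 mice labelled STAT5 KO and 2 mice labelled STAT5 WT, with 1 Affymetrix array per mouse. STAT5 is a transcription factor switched on by prolactin and growth hormone, and the series asks about the development of luminal progenitor cells. A time of 6 days appears in the design text, with its starting point unstated. The labels give no strain or age, do not say which STAT5 gene was deleted, which part of it or in which cells, and list no treatment for either group. Stat5a gave signals of 1836 and 861 on the KO arrays, against 2307 and 2061 on the WT arrays, and Stat5b gave 1069 and 712 on the KO arrays, against 1522 and 1506 on the WT arrays. Both genes were thus lower on both KO arrays, as were 27.5% of all tested genes, and were still measured there. Neither passed the test between genotypes (limma adjusted p = 0.246 for Stat5a and 0.102 for Stat5b). A probe set outside the deleted part would not check the genotype.

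Myoepithelial cells form the outer, basal layer of mammary ducts and alveoli, between the luminal cells and the basement membrane. They carry a smooth muscle contractile apparatus, contract in response to oxytocin to eject milk, and are held to the basement membrane by integrins that bind laminins. The transcription factor p63 maintains basal epithelial cells, and myocardin with serum response factor drives smooth muscle genes through a DNA element called the CArG box. Most contractile members are also made by vascular smooth muscle, and in whole tissue fewer cells of a type and less RNA per cell cannot be told apart.

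The presence of basal epithelium was checked on Krt5, Krt14 and Krt17, basal keratins that are not members. Of the 5 basal keratins listed, Krt15 and Krt6a are given at the end, and Krt6a was higher on both KO arrays. Krt5 gave signals of 804 and 2041 on KO replicates 1 and 2, against 2380 and 2483 on the WT arrays. Krt14 gave 859 and 2118 on the KO arrays, against 2049 and 2030 on the WT arrays, and Krt17 gave 216 and 858 on the KO arrays, against 465 and 589 on the WT arrays. All 3 keratins were measured in every sample, and KO replicate 1 was the lowest array for each. None of them passed the test between genotypes, with limma adjusted p between 0.254 and 0.841.

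Promoter sequence was taken from RefSeq (GRCm38.p6) in windows of 250 bases before and 50 bases after a start site. Of the 34 members 20 had at least 1 window, 26 windows in all. They were searched for the CArG box, as CCWWWWWWGG with W for A or T, and for TTCNNNGAA, the core letters of the STAT5 site. Looser forms of the CArG box were not searched. Both patterns read the same on either strand, and the matches found in members did not overlap. A CArG box lay in 2 of the 26 windows, those of Cnn2 and Myl9, against 1.63% of 32851 windows of all genes. TTCNNNGAA lay in 1 of the 26 windows, 1 of the 3 of Mme, against 8.3% of all windows. The windows with a match are printed up to the first annotated base of the gene, since these 3 genes return in the comparison of genotypes. Capitals mark the CArG box in Cnn2 and Myl9 and TTCNNNGAA in Mme, and a match describes the letters without showing that a factor binds there.
Cnn2, chr10:79988350-79988599, plus strand: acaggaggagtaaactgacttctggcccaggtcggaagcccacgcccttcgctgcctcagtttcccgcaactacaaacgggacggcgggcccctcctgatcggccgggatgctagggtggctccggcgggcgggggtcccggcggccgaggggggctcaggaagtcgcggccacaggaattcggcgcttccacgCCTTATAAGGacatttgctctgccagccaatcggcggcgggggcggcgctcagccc
Myl9, chr2:156775214-156775407, plus strand: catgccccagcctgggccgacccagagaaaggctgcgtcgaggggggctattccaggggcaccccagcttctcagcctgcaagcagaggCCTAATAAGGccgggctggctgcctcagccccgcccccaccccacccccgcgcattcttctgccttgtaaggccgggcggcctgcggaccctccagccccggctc
Mme, chr3:63294961-63295210, plus strand: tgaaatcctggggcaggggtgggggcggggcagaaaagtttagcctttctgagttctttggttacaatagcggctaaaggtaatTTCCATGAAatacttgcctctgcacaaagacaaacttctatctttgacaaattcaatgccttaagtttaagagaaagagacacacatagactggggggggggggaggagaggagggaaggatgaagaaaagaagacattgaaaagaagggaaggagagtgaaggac

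**Figure D1:**
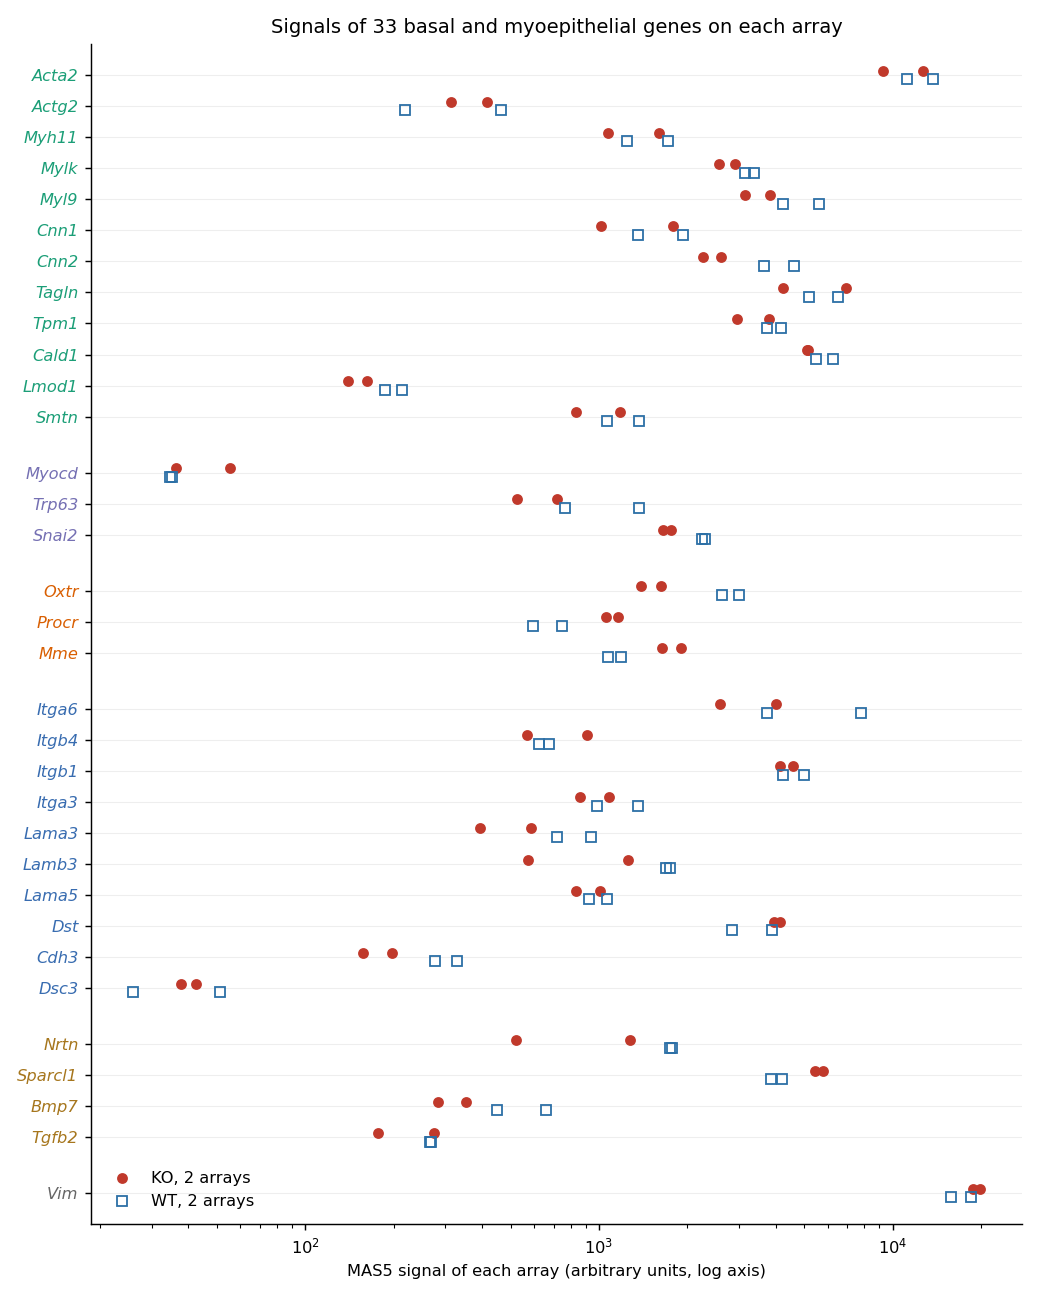
MAS5 signal (arbitrary units, log axis) of the 33 members on each array, with filled circles for the 2 KO arrays and open squares for the 2 WT arrays, and symbol colours for the role of the gene (contractile, transcription factor, receptor or surface enzyme, adhesion, secreted factor, intermediate filament, from top to bottom). The KO signals of Oxtr, 1394 and 1631, lie clear of its WT signals, 3000 and 2621, whereas the signals of Acta2 and Tagln overlap between genotypes.

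Between genotypes the members went different ways. The oxytocin receptor gene Oxtr fell to 53.8% of its WT level. The mean KO signals of Nrtn, Lamb3, Itga6, Bmp7, Trp63, Cdh3, Cnn2 and Lama3 were 51.1% to 59.0% of WT without passing the test, those of 10 of 12 contractile genes lay within 25% of WT, and Procr, Mme and Sparcl1 were higher on both KO arrays. Oxtr alone passed in limma at the threshold of 0.05, after Benjamini-Hochberg adjustment across every probe set tested. That is 1 of 31 tested members, against 2.57% of all tested genes, and it is 1 member lower and 0 higher, against 1.36% of all tested genes lower and 1.21% higher. At an unadjusted p under 0.05 there were 13 members, or 41.9% of those tested, against 21.3% of all tested genes. Of these members 10 were lower and 3 higher, against 10.8% and 10.4% of all tested genes. Both KO arrays lay below both WT arrays for 13 members (41.9%), against 27.5% of all tested genes, and above them for 5 members (16.1%), against 26.2%, so the genotypes did not overlap for 18 members, against 53.7%. The median log2 difference was -0.25 over the members and -0.01 over all tested genes. Luminal and general epithelial markers, called epithelial markers below, include luminal keratins and no basal keratin. Their median was -0.40, with 16 of the 21 below 0 (76.2%, against 51.5% of all tested genes) and 5 above 0. Of the luminal keratins, Krt8 stood at -0.006, Krt19 at 0.11, Krt18 at 0.30 and Krt7 at 1.02. The part of these markers in the members' values was not tested.

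**Figure D2:**
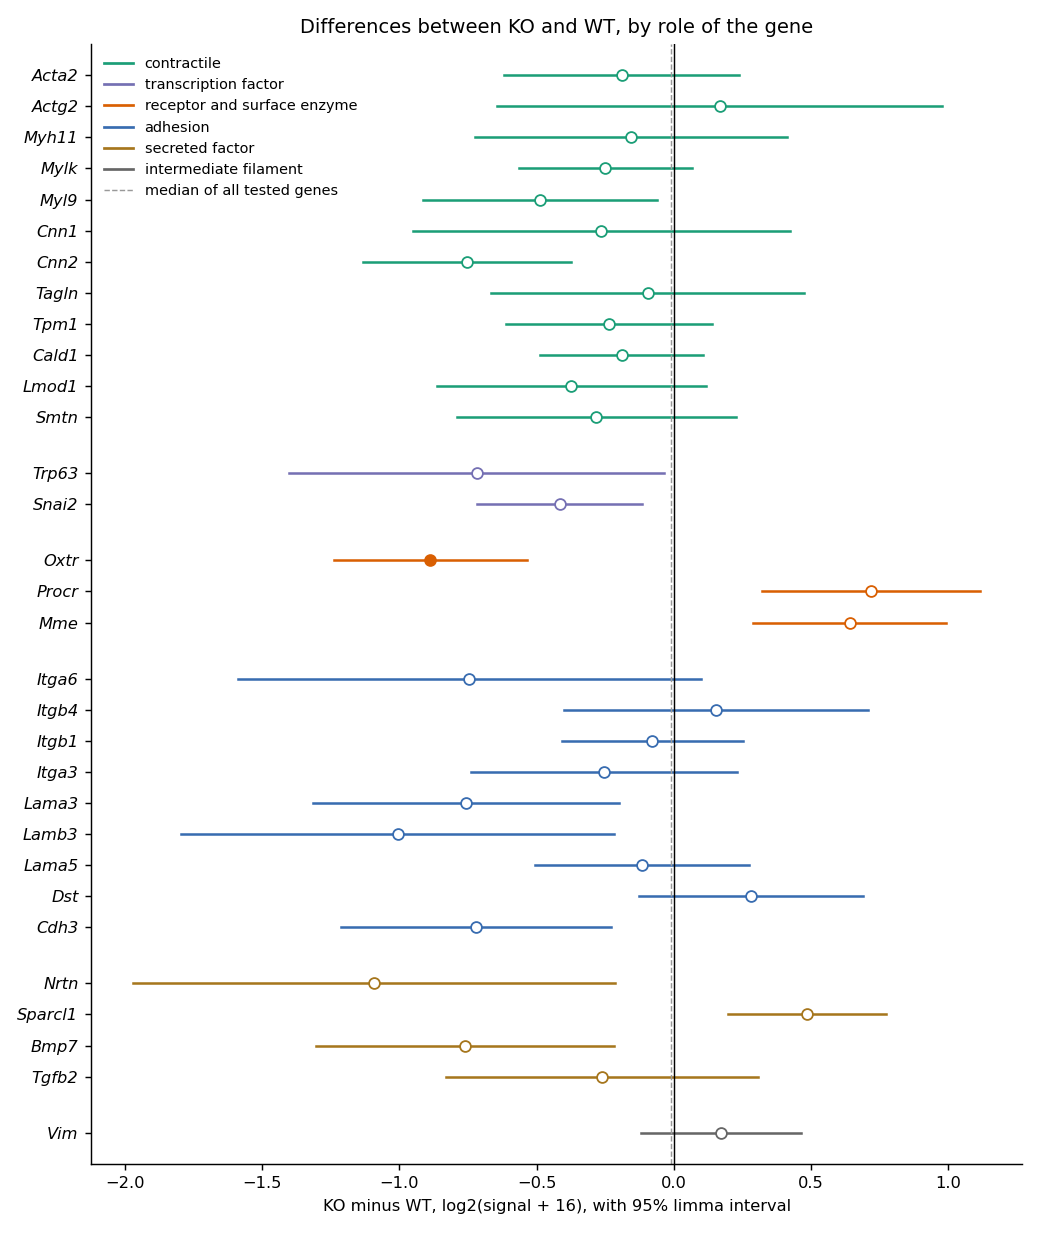
Log2 difference of KO minus WT (log2 of signal plus 16) for the 31 tested members, with 95% intervals from limma and colours for the role of the gene. The filled point is Oxtr, at -0.89, the only member past the threshold, and the contractile members sit between -0.75 and 0.17.

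Oxtr encodes the receptor through which oxytocin makes myoepithelial cells contract at milk let-down. Its signals were 1394 and 1631 on the KO arrays, against 3000 and 2621 on the WT arrays. Both KO arrays lay below both WT arrays, with means of 1513 ± 168 in KO and 2810 ± 268 in WT (SD, n = 2 each). The log2 difference was -0.89 (SE 0.15, limma adjusted p = 0.0425). Its other probe set read 217 and 230 on the KO arrays, against 310 and 346 on the WT arrays, and its difference of -0.52 did not pass (limma adjusted p = 0.178). The call was lost when WT replicate 1 (limma adjusted p = 0.139), WT replicate 2 (0.153) or KO replicate 1 (0.0631) was left out. It was also lost without a filter (0.111, where 0.148% of all genes were called), without a variance trend (0.0691, 1.21%), when both probe sets were averaged (0.0632, 1.91%) and after centring on epithelial markers (-0.53, limma adjusted p = 0.585, 3.18%). The difference stayed below 0 in all of these. Oxtr was the 1 member past the threshold with a pseudocount of 1 (2.42% of all tested genes), a pseudocount of 64 (2.99%), quantile normalization (2.29%), median centring (2.74%) and a filter at the 75th percentile (1.79%).

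The other surface proteins of this role were higher on both KO arrays. Procr, the protein C receptor, which endothelial cells also carry, gave 1059 and 1161 on the KO arrays, against 748 and 596 on the WT arrays. Mme, a membrane metalloprotease used as a myoepithelial surface marker, gave 1900 and 1635 on the KO arrays, against 1185 and 1069 on the WT arrays. In both genes the KO and WT signals did not overlap. Procr differed by 0.72 (SE 0.17, limma adjusted p = 0.0792) and Mme by 0.64 (SE 0.15, adjusted p = 0.0777), and neither passed. A dimmer Mme probe set gave the same difference of 0.64, from 435 and 423 on the KO arrays, against 252 and 287 on the WT arrays.

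Of the 12 contractile genes 7 had signals that overlapped between genotypes. Both KO arrays lay below both WT arrays for 5 (41.7%, against 27.5% of all tested genes) and above them for 0, against 26.2%. None of the 12 tested passed in limma by the probe set that represents the gene, against 2.57% of all tested genes, and 2 had an unadjusted p under 0.05 (16.7%, against 21.3%). Log2 differences were below 0 for 11 of the 12 (91.7%, against 51.5% of all tested genes), and the median was -0.24. After centring on epithelial markers 9 of the 12 were above 0. The mean KO signal lay within 25% of the WT mean for 10 of the 12, the exceptions being Cnn2 and Myl9. Acta2, smooth muscle alpha-actin, gave 9288 and 12679 on the KO arrays, against 11189 and 13711 on the WT arrays. Its groups overlapped, and the difference of -0.19 had a 95% interval of -0.62 to 0.24. Tagln, the actin-binding protein transgelin, gave 4243 and 6932 on the KO arrays, against 5184 and 6484 on the WT arrays. Both WT signals lay between those of the 2 KO mice, and the difference was -0.10 (interval -0.66 to 0.47).

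Myh11, the heavy chain of smooth muscle myosin, gave 1071 and 1599 on the KO arrays, against 1242 and 1721 on the WT arrays. Cnn1, the smooth muscle calponin, gave 1013 and 1788 on the KO arrays, against 1362 and 1926 on the WT arrays. The groups overlapped for both, with differences of -0.16 for Myh11 (interval -0.73 to 0.41) and -0.26 for Cnn1 (interval -0.95 to 0.42). For Acta2, Tagln, Myh11 and Cnn1 the intervals hold 0 and reach down to between -0.95 and -0.62. Actg2, the gamma actin of smooth muscle, was the only contractile member with a difference above 0, and it gave 312 and 415 on the KO arrays, against 219 and 462 on the WT arrays. The KO signals lay inside the range of the WT pair (0.17, interval -0.64 to 0.98).

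Smtn, the cytoskeletal protein smoothelin, gave 833 and 1179 on the KO arrays, against 1065 and 1371 on the WT arrays. Tpm1, which encodes a tropomyosin that lies along actin filaments, gave 2953 and 3781 on the KO arrays, against 3719 and 4168 on the WT arrays. KO replicate 1 was the lowest array in both genes, the groups overlapped, and the differences of -0.28 for Smtn and -0.24 for Tpm1 did not pass. A dimmer Tpm1 probe set had its groups apart, with 123 and 136 on the KO arrays, against 242 and 192 on the WT arrays (-0.67, limma adjusted p = 0.156).

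Cnn2 and Myl9 had the lowest contractile differences. Both had a CArG box in their window, Tagln, Myh11 and Actg2 had no window, and a link was not tested. Cnn2 is a calponin found beyond smooth muscle, and its signals were 2258 and 2598 on the KO arrays, against 3640 and 4596 on the WT arrays. The groups were apart, at a log2 difference of -0.75 (SE 0.16, limma adjusted p = 0.0640). Cnn2 did not pass with all 4 arrays. It passed without KO replicate 2 (-0.85, limma adjusted p = 0.0463) and did not pass without KO replicate 1 (-0.65, adjusted p = 0.127), WT replicate 1 (-0.92, adjusted p = 0.0881) or WT replicate 2 (-0.58, adjusted p = 0.298). Myl9, a regulatory light chain of myosin that is phosphorylated at contraction, gave 3145 and 3828 on the KO arrays, against 4216 and 5625 on the WT arrays. It too was lower on both KO arrays, at -0.49 (limma adjusted p = 0.202).

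Mylk, the kinase that phosphorylates the myosin light chain, gave 2560 and 2906 on the KO arrays, against 3133 and 3361 on the WT arrays. Lmod1, leiomodin, which nucleates actin filaments in smooth muscle, gave 140 and 162 on the KO arrays, against 214 and 186 on the WT arrays. In both genes the KO arrays lay below the WT arrays, at -0.25 for Mylk and -0.37 for Lmod1, and neither passed. All 3 tested probe sets of Mylk were below 0, between -0.48 and -0.25.

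Cald1 encodes caldesmon, an actin-binding inhibitor of contraction with smooth muscle and non-muscle forms, and its probe sets differed in direction. The brightest gave 5146 and 5103 on the KO arrays, against 5468 and 6256 on the WT arrays (-0.19, limma adjusted p = 0.454). Another gave 2113 and 2080 on the KO arrays, against 1049 and 1191 on the WT arrays, and rose by 0.90 (limma adjusted p = 0.0353). The remaining tested probe sets stood at -0.16 and -0.76 and did not pass, so 1 of 4 was higher on both KO arrays and the other 3 were lower. This probe set and that of Oxtr were the 2 past the threshold among 56 tested probe sets of members, against 2.0% of all tested probe sets. Which transcripts each probe set detects was not examined here. Of 15 members with several tested probe sets, 11 had 1 sign in all of them, and besides Cald1 the exceptions were Itgb1, Itga3 and Lama5, all between -0.25 and 0.09.

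**Figure D3:**
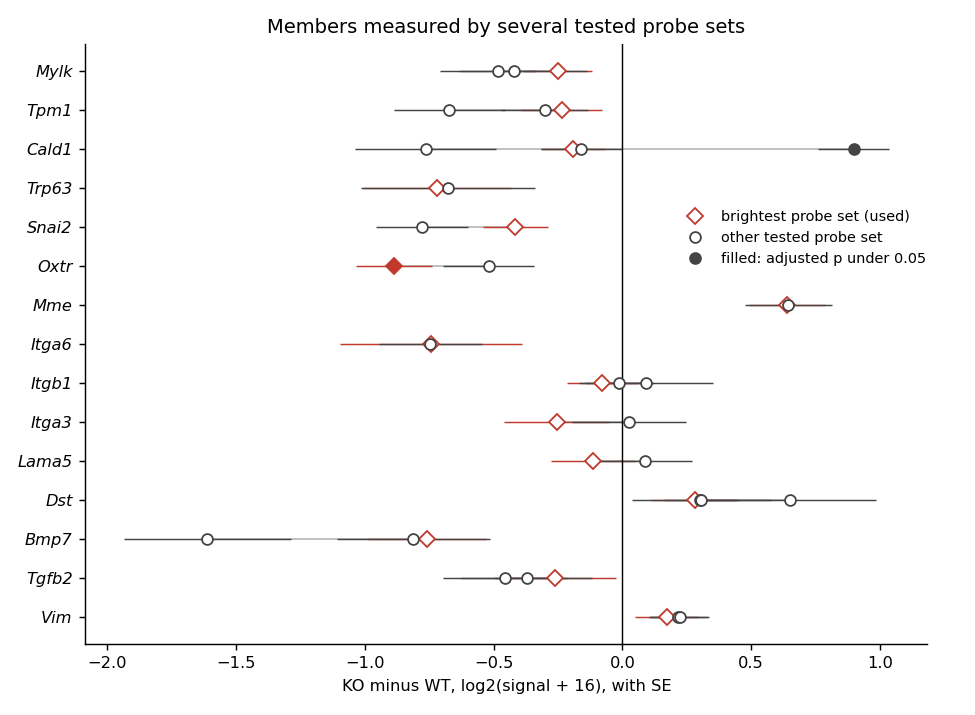
Log2 difference of KO minus WT with its SE for each tested probe set of the 15 members that have several, with diamonds for the brightest probe set and circles for the others, filled where the adjusted p was under 0.05. A Cald1 probe set lies at 0.90, away from the other 3, and all 3 Bmp7 probe sets lie below 0.

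The basal transcription factors Trp63 and Snai2 were lower on both KO arrays without passing. Trp63, the gene of p63, gave 527 and 719 on the KO arrays, against 769 and 1363 on the WT arrays. WT replicate 2 stood well above WT replicate 1, and the difference of -0.72 did not pass (SE 0.29, limma adjusted p = 0.236). Snai2, the zinc finger factor Slug, which represses luminal genes in basal cells, gave 1753 and 1652 on the KO arrays, against 2249 and 2302 on the WT arrays. These signals were close within genotypes and apart between them, at -0.42 (SE 0.13, limma adjusted p = 0.141), and a second Snai2 probe set gave -0.78 (adjusted p = 0.0786). Myocd, myocardin, gave 36.2 and 55.5 on the KO arrays, against 34.7 and 35.1 on the WT arrays. These values lie under the signal of 126 that set the limit for testing, where a dim signal could not be told from background.

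The chains of the epithelial laminin of hemidesmosomes were lower on both KO arrays. Lamb3, its beta chain, gave 572 and 1259 on the KO arrays, against 1695 and 1749 on the WT arrays. Lama3, its alpha chain, gave 393 and 585 on the KO arrays, against 718 and 941 on the WT arrays. The groups did not overlap for either gene, and KO replicate 1 was the lower KO array for both. The differences were -1.01 for Lamb3 (SE 0.33, limma adjusted p = 0.165) and -0.76 for Lama3 (SE 0.23, adjusted p = 0.145). Neither passed with all 4 arrays, and both passed without KO replicate 2, Lamb3 at -1.56 (limma adjusted p = 0.00417) and Lama3 at -1.03 (adjusted p = 0.0412). Without KO replicate 1 neither passed, with Lamb3 at -0.45 (limma adjusted p = 0.241) and Lama3 at -0.48 (adjusted p = 0.338). Without a WT replicate neither passed either, with limma adjusted p between 0.195 and 0.527. Lama5, a laminin alpha chain of many basement membranes, gave 833 and 1006 on the KO arrays, against 927 and 1064 on the WT arrays, which overlapped (-0.12, interval -0.50 to 0.27).

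The integrins that bind laminins were not separated between genotypes by their brightest probe sets. Itga6, an integrin alpha chain used to sort basal cells, gave 2575 and 4002 on the KO arrays, against 3735 and 7774 on the WT arrays. WT replicate 2 alone was high, and the difference of -0.74 did not pass (SE 0.35, limma adjusted p = 0.306). A second Itga6 probe set did separate the groups, at 1245 and 1284 on the KO arrays, against 1748 and 2597 on the WT arrays (-0.75, limma adjusted p = 0.107). Itgb4, its partner in hemidesmosomes, gave 570 and 913 on the KO arrays, against 623 and 673 on the WT arrays, so the KO mice lay on either side of WT (0.15). Itgb1, the beta chain shared by many integrins, gave 4585 and 4115 on the KO arrays, against 4217 and 4988 on the WT arrays (-0.08, interval -0.41 to 0.25). Itga3, which pairs with it, gave 863 and 1080 on the KO arrays, against 981 and 1360 on the WT arrays (-0.25, interval -0.74 to 0.23).

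Dst, dystonin, whose epithelial form links hemidesmosomes to keratin filaments, gave 3951 and 4120 on the KO arrays, against 3893 and 2827 on the WT arrays. WT replicate 1 stood close to the KO arrays, and the difference of 0.28 did not pass (limma adjusted p = 0.421). All 4 tested Dst probe sets were above 0, between 0.28 and 0.65, and none passed. Cdh3, the basal cadherin P-cadherin, gave 158 and 197 on the KO arrays, against 276 and 329 on the WT arrays. Its groups were apart, at -0.72 (SE 0.21, limma adjusted p = 0.124). Dsc3, a desmosomal cadherin of basal layers, was dim at 42.4 and 37.7 on the KO arrays, against 51.2 and 26.0 on the WT arrays, and was not tested. Of the 9 adhesion members tested none passed in limma, against 2.57% of all tested genes, and 3 had an unadjusted p under 0.05 (33.3%, against 21.3%). Differences were below 0 for 7 of the 9 (77.8%, against 51.5% of all tested genes), with a median of -0.25. After centring on epithelial markers Itgb1, Itga3 and Lama5 turned above 0.

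Among secreted factors Nrtn, neurturin, a ligand of the GDNF family, had the lowest difference of the 31 tested members. It gave 520 and 1273 on the KO arrays, against 1744 and 1765 on the WT arrays. The WT mice were alike and the KO mice were not, and the log2 difference was -1.09 (SE 0.37, limma adjusted p = 0.174). Without KO replicate 2 it was -1.72 and passed (limma adjusted p = 0.00268). Without KO replicate 1 it was -0.46 and did not (adjusted p = 0.227), and it was then no longer the lowest member, with Oxtr at -0.78. Without WT replicate 1 or WT replicate 2 it did not pass, at limma adjusted p = 0.348 and 0.465. Bmp7, a bone morphogenetic protein, gave 284 and 352 on the KO arrays, against 451 and 661 on the WT arrays, which did not overlap (-0.76, limma adjusted p = 0.136). A second Bmp7 probe set stood at -0.81, and the remaining one at -1.61 with 66.0 and 136 on the KO arrays, against 282 and 374 on the WT arrays (limma adjusted p = 0.0597). Tgfb2, a transforming growth factor beta, gave 274 and 177 on the KO arrays, against 268 and 266 on the WT arrays, and KO replicate 2 alone stood apart (-0.26).

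Sparcl1, a secreted matrix-associated protein that stromal and vascular cells also make, gave 5788 and 5438 on the KO arrays, against 3836 and 4181 on the WT arrays. The groups were apart, at 0.48 with an SE of 0.12, and Sparcl1 did not pass (limma adjusted p = 0.0928). Vim, vimentin, made by basal and mesenchymal cells alike, gave 18708 and 19819 on the KO arrays, against 18507 and 15799 on the WT arrays. WT replicate 1 stood close to the KO arrays, and the difference was 0.17 (interval -0.12 to 0.46). All 3 Vim probe sets were above 0, between 0.17 and 0.22.

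Replicates differed from each other within both genotypes. KO replicate 1 lay below KO replicate 2 for 25 of the 31 tested members (80.6%), against 55.2% of all tested genes. WT replicate 1 lay below WT replicate 2 for 24 of the 31, against 5689 of 11360 tested genes. The median over members of replicate 1 minus replicate 2 was -0.30 in KO and -0.20 in WT. Relative to the WT mean, the median over members was -0.41 on KO replicate 1 and -0.16 on KO replicate 2, and over contractile members it was -0.45 and -0.05. KO replicate 1 was also the lower for all 5 basal keratins and for 20 of 21 luminal and general epithelial markers. The medians of these epithelial markers relative to WT were -0.67 on KO replicate 1 and -0.14 on KO replicate 2. The number of members that passed was 0 without KO replicate 1, against 3.36% of all tested genes, and 5 without KO replicate 2 (Cnn2, Oxtr, Lama3, Lamb3 and Nrtn), against 5.27%. It was 0 with either WT replicate left out, against 0.879% of all tested genes without WT replicate 1 and 0.386% without WT replicate 2.

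**Figure D4:**
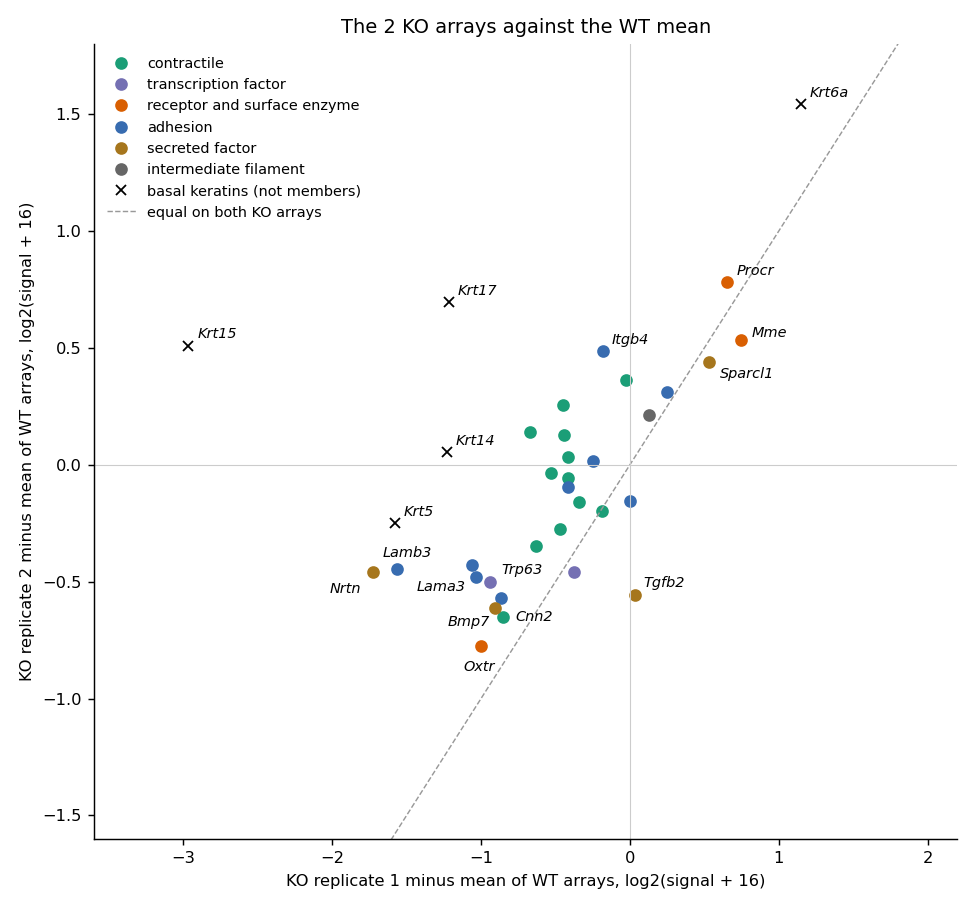
Difference of KO replicate 1 (horizontal) and KO replicate 2 (vertical) from the mean of the WT arrays, on the scale of log2(signal + 16), for the 31 tested members by role and for 5 basal keratins (crosses). Of the members 25 lie above the dashed line of equality, and Procr, Mme and Sparcl1 lie above 0 on both arrays.

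Markers of other cell types of the tissue are given as summed signal over a list, as a median difference or as both. Vascular smooth muscle and pericyte markers, 12 genes of cells that also make contractile members, summed to 15752 to 17846 on the KO arrays and 14868 to 15743 on the WT arrays. Of the 11 tested none passed in limma, against 2.57% of all tested genes, and the median difference was 0.19. At an unadjusted p under 0.05 there were 4, all higher (36.4%, against 10.4% of all tested genes higher). Endothelial markers, of cells that also make Procr, summed to 12878 to 14923 on the KO arrays and 12746 to 13168 on the WT arrays, with a median of 0.08. Fibroblast and matrix markers had a median of 0.10, and 1 of 12, the matrix protein gene Fbln1, rose (8.33%, against 1.21% of all tested genes). Adipocyte markers had a median of 0.07. Macrophage markers, with Adgre1 entered under both of its symbols, had a median of 0.31. None in these lists of adipocyte and macrophage markers passed, against 2.57% of all tested genes. Skeletal muscle markers, some from cells that also make Tpm1, had a median difference of 2.51. They summed to 11418 to 16093 on the KO arrays and 5386 to 6233 on the WT arrays. Of the 11 tested 5 rose (45.5%, against 1.21% of all tested genes). Luminal and general epithelial markers summed to 42604 to 63940 on the KO arrays and 62100 to 65748 on the WT arrays. Of these 21 genes 2 fell and 1, Krt7, rose (14.3% called, against 2.57% of all tested genes). The part of these cell types in the members' differences was not tested.

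Genes of the same pathways outside the member list were also tested. Of 34 tested genes of the contractile pathway none passed in limma, against 2.57% of all tested genes. Below 0 there were 17 and above it 17, and the median was 0.01. Fhl2, a LIM domain protein, stood at -0.75, with 250 and 258 on the KO arrays, against 367 and 522 on the WT arrays. Svil, the actin-binding protein supervillin, stood at 0.68, with 3554 and 4043 on the KO arrays, against 2365 and 2358 on the WT arrays (limma adjusted p = 0.0540). Synm, an intermediate filament protein of muscle, came next at 0.44, and these 3 were the farthest from 0. At an unadjusted p under 0.05 there were 4 of the 34 genes, or 11.8%, against 21.3% of all tested genes.

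Of 28 other basement membrane, hemidesmosome and desmosome genes none passed in limma, against 2.57% of all tested genes, and the median was -0.07. Lama1, a laminin alpha chain, stood lowest at -1.39, with 177 and 340 on the KO arrays, against 471 and 946 on the WT arrays (limma adjusted p = 0.120). The desmosomal cadherin Dsg2 stood at 50.5% of its WT level, with 621 and 971 on the KO arrays, against 1668 and 1483 on the WT arrays, and its relative Dsc2 at -0.72. At an unadjusted p under 0.05 there were 11 of the 28 (39.3%, against 21.3% of all tested genes), 8 lower and 3 higher. Without KO replicate 2, 4 genes of this list passed, against 5.27% of all tested genes, and with any other single array left out 0 passed.

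Of 25 other basal regulators 1 passed, against 2.57% of all tested genes. Wif1, a secreted inhibitor of Wnt ligands, fell to 24.6% of its WT level, with 190 and 102 on the KO arrays, against 538 and 652 on the WT arrays. Its log2 difference was -1.96 (SE 0.29, limma adjusted p = 0.0324), and the call was lost with either WT replicate left out and with no filter. With a filter at the 75th percentile Wif1 was too dim to be tested. Nrg1, a ligand of ERBB receptors made by basal cells and named after its values were seen, was too dim to be tested, at 18.7 and 3.26 on the KO arrays, against 23.9 and 52.0 on the WT arrays.

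**Figure D5:**
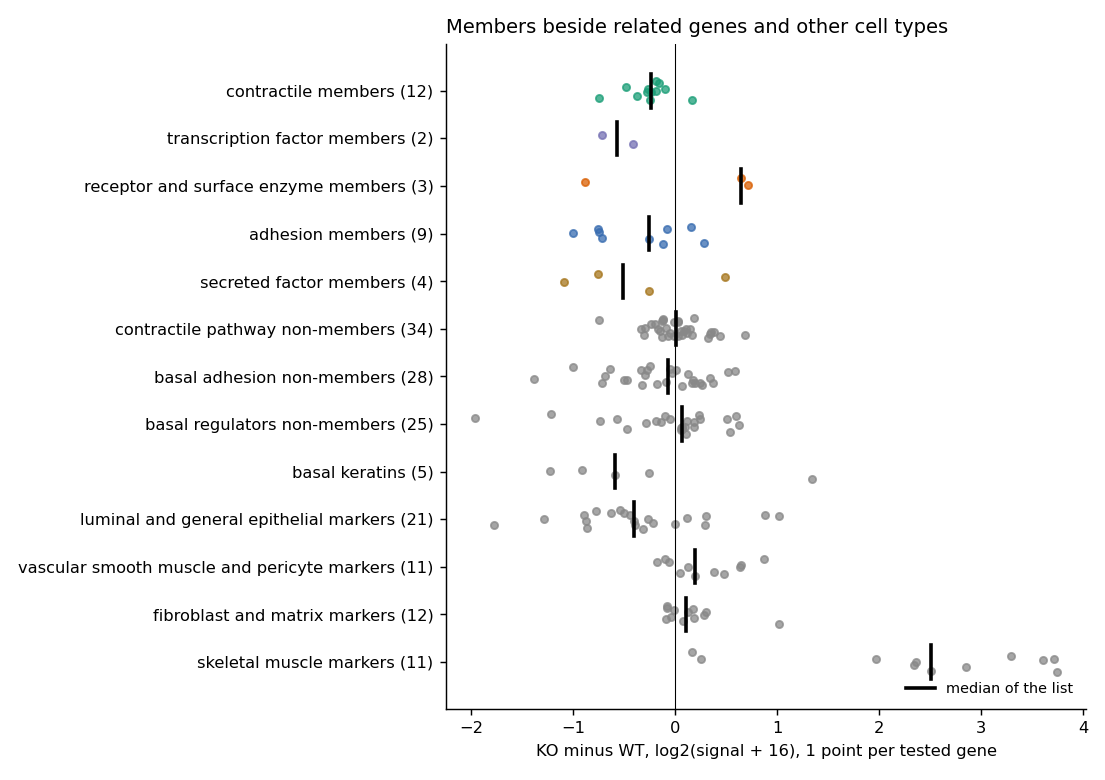
Log2 difference of KO minus WT for each tested gene (points) and the median (bars) of the member groups, of other genes of the same pathways, of basal keratins and of marker lists of other cell types, with the number of tested genes in brackets. Contractile members lie around a median of -0.24, adhesion members spread from -1.01 to 0.28, and skeletal muscle markers have a median of 2.51.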

How the data were processed

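The authors deposited linear intensity values per probe set. The submitters' processing notes name MAS5, and its version is not given in the sources used here. As read from the values, each array had been brought to a common mean after trimming 2% at each end. Total RNA had been isolated with TRIzol and biotin-labelled, per the labels' protocols. The array held 45101 probe sets, of which 64 controls were left out. Symbols came from the platform annotation: 34945 probe sets had 1 symbol, 932 several, and 9160 are unnamed here. Detection calls were not used.

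Signals were analysed as log2(signal + 16), which understates differences of dim genes. The brighter part of the probe sets, from the median of their means upward (7.15 on the log2 scale, a signal of 126), was tested, 22519 in all. KO was compared with WT with limma 3.58.1 in R 4.3.3 (lmFit, eBayes with trend), and p-values were adjusted by Benjamini-Hochberg across these probe sets (threshold 0.05). Each fit has 2 residual degrees of freedom, the number of arrays limits the precision, and p-values reflect no more than the spread of these mice. With 2 arrays on each side, an exact two-sided permutation p is at least 0.333, and none was computed. The fit was checked on simulated data for recovery of known differences on average, with spreads shuffled across probe sets. This does not check the calls made here. Arrays were numbered within a genotype in order of deposit, so equal numbers pair no mice.

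All members are named. Of the pathway lists, genes past the threshold are named, or otherwise the 3 farthest from 0. The members and lists were chosen with earlier results of these data known. Alternatives were pseudocounts of 1 and 64, quantile normalization, and centring on array medians or on luminal and general epithelial markers. Others were no filter or one at the 75th percentile, no trend, the mean of all probe sets, and leaving out each array.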

Additional observations from a re-analysis of the deposited data

How the results depend on the processing

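No paired analysis was possible because the labels give the genotypes no shared replicate numbers. The number of members past the threshold was 1 with all 4 arrays and 0 to 5 with an array left out. It was 0 after centring on epithelial markers, without a filter, without a trend and when a gene's probe sets were averaged, and 1 with the other 5 alternatives, Oxtr each time. The median difference of the members was 0.11 centred on epithelial markers, which brought the median of all genes to 0.35, and lay between -0.41 and -0.10 when an array was left out. Calls in the contractile pathway list numbered 1 with median centring (Svil) and otherwise 0. With an array left out there were 0 to 4 calls among other adhesion genes and 0 to 3 among other regulators. The regulators had 0 calls with no filter and with the 75th percentile filter, which left Wif1 untested.

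Signs turned in members that passed in no setting. Centred on epithelial markers, differences were 0.17 for Acta2, 0.20 for Myh11, 0.11 for Mylk, 0.10 for Cnn1, 0.27 for Tagln, 0.13 for Tpm1, 0.17 for Cald1, 0.0798 for Smtn, 0.28 for Itgb1, 0.11 for Itga3, 0.25 for Lama5 and 0.10 for Tgfb2. With probe sets averaged Cald1 was at 0.088 and Lama5 at 0.12, and with median centring Itgb1 was at 0.0036. With an array left out, differences ran from -0.41 to 0.0337 for Acta2, -0.35 to 0.68 for Actg2, -0.44 to 0.13 for Myh11, -0.67 to 0.14 for Cnn1, -0.45 to 0.26 for Tagln, -0.18 to 0.49 for Itgb4, -0.20 to 0.0426 for Itgb1, -0.25 to 0.0172 for Lama5 and -0.56 to 0.0319 for Tgfb2. The cause of these moves was not tested. Where an array was left out, the lone array was assumed to vary like the other genotype. Dim signal limits what Myocd, Dsc3 and Lmod1 can show.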

Other observations

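Some basal genes outside the members are named here after their values were seen. Krt15, a basal keratin, gave 201 and 2395 on KO replicates 1 and 2, against 1595 and 1763 on the WT arrays, so the KO mice lay on either side of WT. Krt6a, a keratin of some epithelial progenitors, gave 197 and 263 on the KO arrays, against 51.5 and 120 on the WT arrays, and was the only one of 5 basal keratins above 0 (1.34, limma adjusted p = 0.106). Sox10, a transcription factor of neural crest and mammary epithelial cells, gave 977 and 1905 on the KO arrays, against 3038 and 3381 on the WT arrays (-1.22, limma adjusted p = 0.0817). Col17a1, the hemidesmosomal collagen, gave 334 and 590 on the KO arrays, against 705 and 700 on the WT arrays. Col7a1, the collagen of anchoring fibrils, gave 742 and 2015 on the KO arrays, against 1854 and 2120 on the WT arrays. None of these 5 genes passed with all 4 arrays. Sox10, Col17a1 and Col7a1 were past the threshold without KO replicate 2 (limma adjusted p = 0.00268, 0.0264 and 0.00741), and none of these 3 passed with any other single array left out.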
